A study of Mus musculus with 8 samples.

Results

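The Notch pathway and the secretory fate switch were examined as a set of 10 genes: the ligands Dll1, Dll4 and Jag1, the receptors Notch1 and Notch2, the DNA-binding partner Rbpj, the target Hes1, the inhibitor Numb, and the secretory transcription factors Atoh1 and Gfi1. They were taken by symbol from the 17634 genes of the deposited table, and all 10 were found and tested, among 12908 tested genes. The study sequenced total RNA of small intestinal crypts, the pockets of dividing epithelium at the base of the villi, from C57BL/6N mice 3 days after irradiation. One group comprised 4 wild-type samples and the other 4 samples of mice with the miR-29ab1 locus deleted (knockout), which encodes miR-29a and miR-29b-1. Both groups were irradiated and no group was left unirradiated, so what irradiation itself changed was not measured. The radiation dose, the age of the mice and any pooling of animals are not stated in the labels, nor whether the deletion is present in every cell of the mouse.

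Notch signalling passes between touching cells. A ligand of the Delta or Jagged family on one cell pulls on a Notch receptor on the next, the receptor is cut by an ADAM protease and then by gamma-secretase, and the freed intracellular part joins RBPJ on DNA and turns on genes such as Hes1. In intestinal crypts HES1 represses Atoh1, the factor that commits a progenitor to the secretory lineages (goblet, Paneth, enteroendocrine and tuft cells). ATOH1-positive cells carry DLL1 and DLL4 on their surface and keep their neighbours in the Notch-on, absorptive or stem state, while GFI1 acts below ATOH1 in goblet and Paneth cells. NUMB binds the Notch receptor and aids its removal from the membrane.

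The microRNAs encoded by the deleted locus share a seed, the bases by which a microRNA finds its targets. Their mature sequences are shown with the seed (bases 2 to 8) in capitals, because its match was sought in the 10 genes. The sequences are from RefSeq on GRCm38.p6, at chr6:31062673-31062694 and chr6:31063025-31063047, both on the minus strand.
miR-29a-3p: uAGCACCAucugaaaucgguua
miR-29b-3p: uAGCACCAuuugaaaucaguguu

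The seed match TGGTGCT was found once in the 3′ UTR of Rbpj and once in that of Numb, and in none of the 3′ UTRs of the other 8 genes. The search covered 1 UTR per gene, its longest in the GENCODE M21 annotation (GRCm38). The Rbpj match starts at base 2943 of a 3742-base UTR (chr5:53656563-53656569, plus strand), and the Numb match at base 950 of a 3046-base UTR (chr12:83796126-83796132, minus strand). Each is shown with its flanks and with the match in capitals.
Rbpj 3′ UTR site: gtttcttttctgtgTGGTGCTggggtc
Numb 3′ UTR site: tggggtcagtcttcTGGTGCTgcctct

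Of the 12644 tested genes with an annotated 3′ UTR, 2129 (16.8 percent) held the same match. Of the 2 genes with a match, Numb was higher in the knockout (log2 fold change 1.07) and Rbpj, at −0.35, did not pass the test; the values are given below. A match is a description of the letters and not evidence of binding. The deleted microRNA genes are not rows of the table, so their loss could not be verified here. Other loci were not searched for microRNAs with the same seed, so whether the knockout retains such microRNAs is not known here.

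Measured as deposited counts scaled to CPM, counts relative to the library total with TMM factors,, 6 of the 10 genes passed edgeR's quasi-likelihood test of knockout against wild type (adjusted p below 0.05). Transcripts of Dll1, Dll4, Numb, Atoh1 and Gfi1 were higher in crypts of the knockout, and Hes1 was lower. Notch1, Notch2, Jag1 and Rbpj did not pass. Of all genes tested, 24.2 percent were called higher and 23.1 percent lower (6105 genes, 47.3 percent in all), so a call as such is common in these data; the share of the 10 genes called was 60 percent. The values of wild-type and knockout libraries did not overlap in 6 of the 10 genes, the same 6 that passed the test, against 45.4 percent of all genes. The median log2 fold change was 0.16 over the 10 genes and 0.03 over all genes tested. The labels do not say how the animals were bred or the crypts prepared, so the p-values cover only the spread among these samples, which may be technical.

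**Figure D1:**
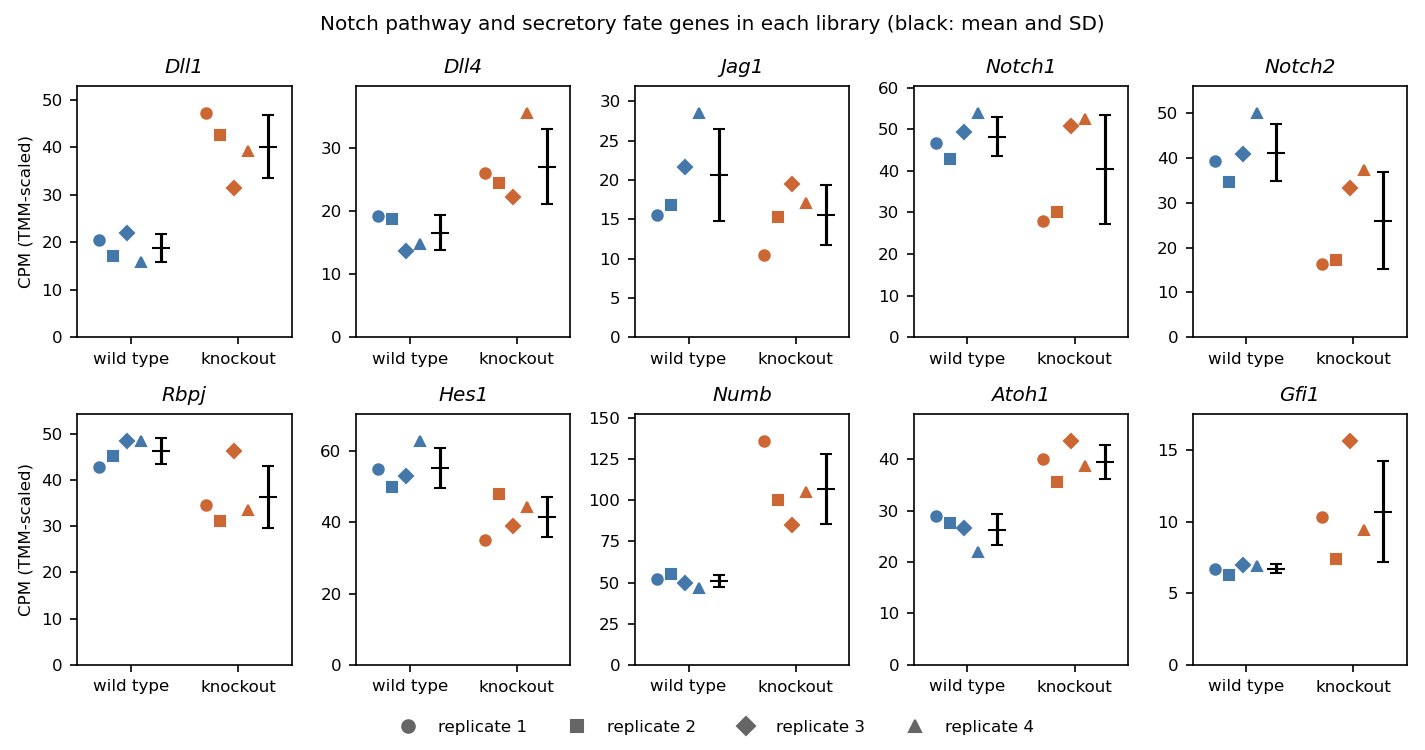
Level of each of the 10 genes in every library, in CPM with TMM factors, each panel from 0; coloured points are libraries and the black marks are mean and SD of 4 per group. Dll1, Dll4, Numb, Atoh1, Gfi1 and Hes1 separate the groups, while Notch1, Notch2, Jag1 and Rbpj overlap.

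Both Delta ligands were higher in the knockout. Dll1, which crypt secretory progenitors present to their neighbours, stood at 20.5, 17.0, 22.0 and 15.7 CPM in wild-type replicates 1 to 4 and at 47.3, 42.7, 31.4 and 39.3 CPM in knockout replicates 1 to 4. Every knockout library was above every wild-type library, and the lowest was knockout replicate 3. The means were 18.8 ± 2.92 and 40.2 ± 6.69 CPM (SD, n = 4 each), a 2.13-fold difference (log2 fold change 1.09, SE 0.16, edgeR adjusted p = 0.00130). Dll1 passed the test in all 16 alternative analyses, with log2 fold changes from 0.80 to 1.35.

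Dll4, the other Delta ligand of crypt secretory cells and also a ligand of sprouting endothelium, stood at 19.2, 18.7, 13.7 and 14.7 CPM in wild-type replicates 1 to 4 and at 26.0, 24.4, 22.2 and 35.6 CPM in the knockout. The groups did not overlap, and knockout replicate 4 stood above the other 3 knockout libraries. The means were 16.6 ± 2.81 and 27.0 ± 5.88 CPM, a 1.63-fold difference (log2 fold change 0.71, SE 0.18, edgeR adjusted p = 0.0116). The call was lost when libraries were scaled by total counts (log2 fold change 0.45, adjusted p = 0.0875) and in replicates 1 to 3 alone (0.46, adjusted p = 0.0696). Summed over 15 endothelial markers, of which 8 were tested, knockout replicate 4 was also the highest library, at 58.0 CPM against 11.8 to 24.4 CPM in the other 7 libraries. None of the 8 was at 0 in all libraries, 1 of them (Egfl7) was lower in the knockout and none was higher. In knockout replicate 4 the endothelial receptor genes Tie1 and Kdr stood at 19.3 and 6.46 CPM and Plvap at 9.64 CPM, each the highest of the 8 libraries, while Cdh5 stood at 0 to 1.20 CPM over the 8 libraries, with knockout replicate 3 the highest. Without knockout replicate 4, the log2 fold change of Dll4 was 0.51 (edgeR adjusted p = 0.0288). The part of endothelial cells in the Dll4 level was not tested.

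Jag1, the Jagged ligand of the set, did not pass the test. It stood at 15.6, 16.8, 21.7 and 28.5 CPM in wild-type replicates 1 to 4 and at 10.5, 15.3, 19.4 and 17.0 CPM in the knockout. The ranges overlap, with wild-type replicate 4 the highest library and knockout replicate 1 the lowest. The log2 fold change was −0.41 (95% interval −0.96 to 0.14, edgeR adjusted p = 0.189), and no alternative analysis called it.

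The receptors did not pass the test, and their knockout libraries fell apart into 2 low and 2 high values. Notch1, a receptor of crypt base stem cells, stood at 46.7, 42.9, 49.2 and 53.9 CPM in wild-type replicates 1 to 4. In the knockout it stood at 28.0 and 30.1 CPM in replicates 1 and 2, below every wild-type library, and at 50.9 and 52.4 CPM in replicates 3 and 4, within the wild-type range. Its log2 fold change was −0.26 (95% interval −0.75 to 0.23, edgeR adjusted p = 0.348).

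Notch2, the other receptor of the crypt epithelium, stood at 39.3, 34.7, 40.9 and 50.1 CPM in wild-type replicates 1 to 4 and at 16.3, 17.1, 33.3 and 37.3 CPM in the knockout. Knockout replicates 1 and 2 were again the lowest, and the ranges overlap because wild-type replicate 2 lies below knockout replicate 4. The log2 fold change was −0.67 (95% interval −1.29 to −0.04), with an edgeR adjusted p of 0.0749. The replicate number was also used as a block, although no label says that it pairs samples. In that fit Notch2 passed, at −0.74 (edgeR adjusted p = 0.0109). DESeq2 also called it (adjusted p = 0.0463), as did edgeR without knockout replicate 3 (−0.81, adjusted p = 0.0459) and without knockout replicate 4 (−0.95, adjusted p = 0.0161). Whether Notch2 counts as lower thus depends on the fit.

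Among the knockout libraries, the 2 with low receptor levels had the higher enterocyte marker sums, while the fibroblast sums lay closer together. Knockout replicates 1 and 2 had the highest sums over 20 enterocyte markers, 107060 and 91822 CPM, against 32327 and 50317 CPM in knockout replicates 3 and 4 and 2668 to 13424 CPM in wild type. The sum over 15 fibroblast markers, of which 11 were tested (2 higher, none lower, none at 0 in all libraries), was 351, 302, 430 and 367 CPM in knockout replicates 1 to 4 and 124 to 296 CPM in wild type. Its members did not run together: the matrix gene Dcn stood at 7.29 and 8.22 CPM in knockout replicates 1 and 2 and at 82.1 and 109 CPM in replicates 3 and 4, whereas Fbln1 stood at 315 and 273 and at 131 and 116 CPM. In one alternative, the 3 libraries with the largest fibroblast sums relative to unscaled library totals (wild-type replicate 3 and knockout replicates 3 and 4) were left out. They are called the 3 fibroblast-rich libraries below, by that ranking only. With TMM factors, knockout replicate 1 would take the place of wild-type replicate 3, a choice that was not run. In the fit without those 3 libraries the log2 fold change was −0.71 for Notch1 (edgeR adjusted p = 0.0112) and −1.30 for Notch2 (adjusted p = 0.00330), which compares 3 wild-type libraries with 2 of the knockout. The 2 knockout libraries left out held the higher Notch1 and Notch2 levels of their group, so a larger fall was built into that choice. The part that cell composition plays in the receptor levels was not tested. In such bulk RNA, fewer cells of a type and less RNA per cell cannot be told apart.

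Rbpj, the DNA-binding partner that carries the Notch signal to its target genes, stood at 42.8, 45.1, 48.5 and 48.5 CPM in wild-type replicates 1 to 4 and at 34.6, 31.1, 46.3 and 33.6 CPM in the knockout. Of the knockout libraries, 3 lay below every wild-type library, and replicate 3 lay within the wild-type range. The means were 46.2 ± 2.78 and 36.4 ± 6.75 CPM (log2 fold change −0.35, 95% interval −0.65 to −0.04, edgeR adjusted p = 0.0600). With the replicate number as a block the change was −0.36 and passed (adjusted p = 0.0268), and without knockout replicate 3 it was −0.48 (adjusted p = 0.00604). DESeq2 gave an adjusted p of 0.0456.

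Hes1, the target through which Notch represses Atoh1, was lower in the knockout. It stood at 55.0, 50.04, 53.0 and 62.9 CPM in wild-type replicates 1 to 4 and at 35.1, 48.0, 38.9 and 44.3 CPM in the knockout. The groups did not overlap, but only narrowly, since knockout replicate 2 lay just under wild-type replicate 2. The means were 55.2 ± 5.51 and 41.6 ± 5.70 CPM, 1.33-fold lower (log2 fold change −0.41, SE 0.13, edgeR adjusted p = 0.0242). The call did not hold when any of 4 single libraries was left out: wild-type replicate 1 (adjusted p = 0.0538), wild-type replicate 4 (0.0717), knockout replicate 1 (0.0631) or knockout replicate 3 (0.0515). It was also lost in replicates 1 to 3 alone (adjusted p = 0.0878) and without the 3 fibroblast-rich libraries (adjusted p = 0.116).

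Numb, the receptor inhibitor, was the highest of the 10 genes in CPM in the knockout. It stood at 51.9, 55.2, 49.5 and 46.9 CPM in wild-type replicates 1 to 4 and at 136, 100.3, 85.2 and 105 CPM in the knockout. All 4 knockout libraries lay far above the narrow wild-type range, with replicate 1 the highest. The means were 50.9 ± 3.51 and 107 ± 21.4 CPM, a 2.10-fold difference (log2 fold change 1.07, SE 0.15, edgeR adjusted p = 0.00116), and all 16 alternatives called it. The deposited counts of Numb were not whole numbers in any of the 8 libraries, while those of the other 9 genes were whole in all 8. Fractions arise where a counting method shares reads between overlapping or similar features, so its level is uncertain to that extent.

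The secretory factors Atoh1 and Gfi1 were both higher. Atoh1, the master factor of the secretory lineages, stood at 29.04, 27.6, 26.6 and 21.9 CPM in wild-type replicates 1 to 4 and at 40.0, 35.6, 43.6 and 38.6 CPM in the knockout. The groups were well apart, with wild-type replicate 4 the lowest library. The means were 26.3 ± 3.09 and 39.5 ± 3.30 CPM, a 1.50-fold difference (log2 fold change 0.59, SE 0.12, edgeR adjusted p = 0.00394). The call was lost in 1 of 16 alternatives, scaling by total counts (log2 fold change 0.33, adjusted p = 0.127).

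Gfi1, a zinc-finger repressor of the secretory lineage that T cells also express, had the fewest counts of the 10 genes, 109 per library on average. It stood at 6.69, 6.28, 6.99 and 6.94 CPM in wild-type replicates 1 to 4 and at 10.3, 7.43, 15.7 and 9.45 CPM in the knockout. The groups did not overlap, but knockout replicate 2 lay close to wild type and replicate 3 far above the rest. The means were 6.73 ± 0.33 and 10.7 ± 3.51 CPM, a 1.59-fold difference (log2 fold change 0.67, SE 0.23, edgeR adjusted p = 0.0398). This was the weakest of the 6 calls and held in only 4 of 16 alternatives. Leaving out any single library except knockout replicate 2 ended it (adjusted p = 0.0517 to 0.0900), and without knockout replicate 3 the log2 fold change was 0.43 (adjusted p = 0.0841). Knockout replicate 3 was also highest in the sum of 12 T and B cell markers, 621 CPM against 26.6 to 275 CPM in the other 7 libraries. Of the 8 of these markers that were tested, none was called in either direction and none was at 0 in all libraries, and Cd3e stood at 59.9 CPM there and at 1.32 to 21.8 CPM elsewhere. The part of lymphocytes in the Gfi1 level was not tested.

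Many markers of goblet and tuft cells were also higher, and fewer of enteroendocrine and Paneth cells. Of 19 goblet markers, a list that includes Atoh1 itself, 15 were higher and none lower, and their sum was 9977 to 15790 CPM in the knockout against 2289 to 5074 CPM in wild type. Of 15 tested tuft markers 12 were higher and none lower, with sums of 90.2 to 109 against 29.3 to 44.3 CPM. Of 22 enteroendocrine markers 7 were higher and none lower (1211 to 1495 against 509 to 949 CPM). Of 16 Paneth markers 5 were higher and none lower, with sums that overlap (14977 to 47975 against 13445 to 18865 CPM). Over all genes tested 24.2 percent were called higher and 23.1 percent lower. The enteroendocrine and Paneth counts of higher markers lie not far from that share. All 20 enterocyte markers were higher too, so the rise was not limited to secretory transcripts, and 9 of 15 markers of Lgr5-positive stem cells were lower and none higher (1070 to 1767 against 1843 to 2201 CPM). No marker of these 6 lists that was tested was at 0 in all libraries. Whether the Atoh1 and Dll1 levels follow the share of secretory cells was not tested.

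**Figure D2:**
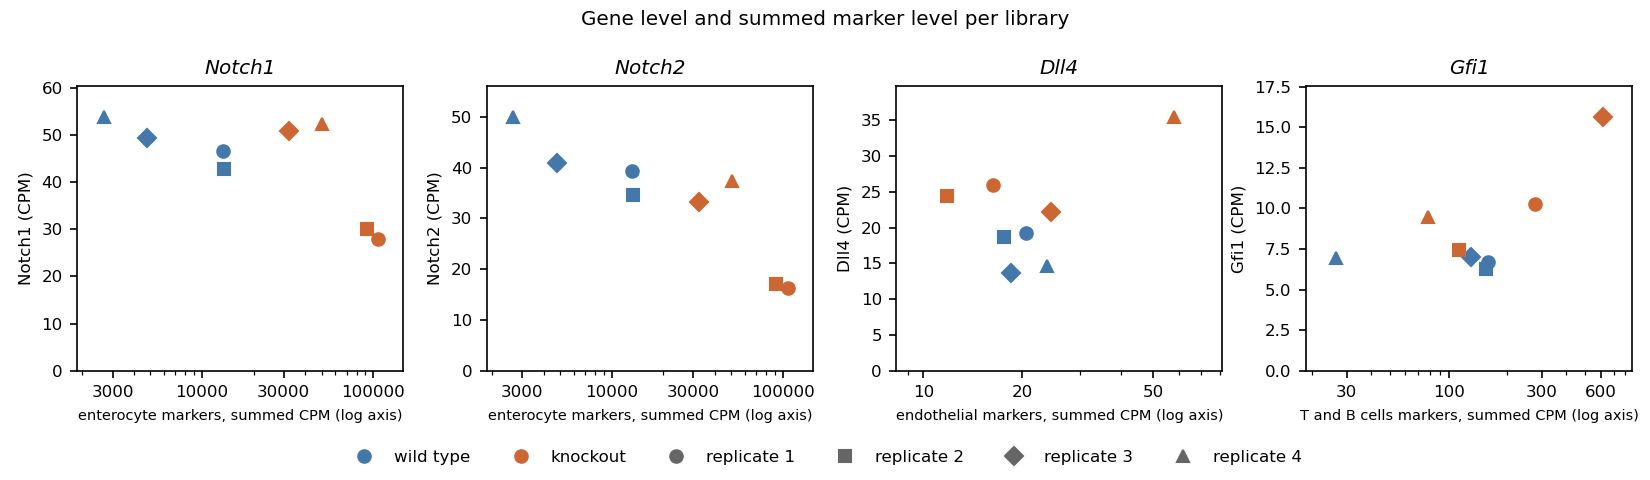
Level of single genes (vertical axis, CPM, from 0) against the summed level of a marker list in the same library (horizontal log axis, CPM); colour marks genotype and shape the replicate number. Knockout replicate 4 is highest in both Dll4 and endothelial markers, knockout replicate 3 in both Gfi1 and T and B cell markers, and knockout replicates 1 and 2 combine the highest enterocyte sums with the lowest Notch2 levels.

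Compared within same-numbered libraries of the 2 genotypes, 9 of the 10 genes moved one way in all 4 pairs. The share of all genes that did so was not counted. A gene whose groups do not overlap does so of necessity, and that held for 45.4 percent of all genes. Dll1 was higher by 1.20, 1.32, 0.51 and 1.31 on the log2 scale in pairs 1 to 4, Numb by 1.39, 0.86, 0.78 and 1.16, and Atoh1 by 0.46, 0.37, 0.71 and 0.81. The Hes1 difference was −0.65, −0.06, −0.45 and −0.51, so pair 2 showed almost none. Notch2 gave −1.26, −1.01, −0.29 and −0.42. The exception was Notch1, at −0.73, −0.51, 0.05 and −0.04.

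The choice of scaling matters to the higher genes, because the median log2 fold change of all genes was 0.03 with TMM factors, −0.06 with upper-quartile factors and −0.23 with total counts alone. With total counts, 34.2 percent of all called genes were higher, against 51.3 percent with TMM. Under that scaling 2 of the 10 genes, Dll1 and Numb, remained called higher and 2, Hes1 and Rbpj, were called lower. No gene of the 10 changed sign in any of the 16 alternatives.

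**Figure D3:**
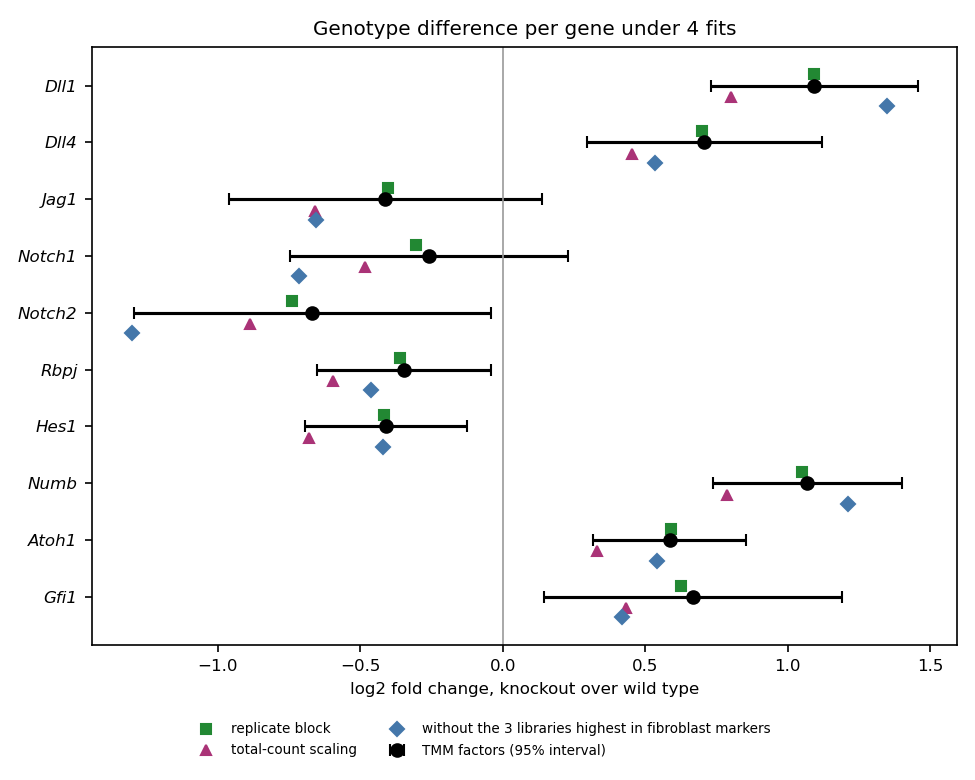
Log2 fold change of each gene, knockout over wild type (horizontal axis), with 95% intervals for the TMM fit, and the values of 3 other fits as coloured marks. Dll1 and Numb lie near 1 under TMM and far from 0 in every fit, whereas total-count scaling moves Atoh1 from 0.59 to 0.33 and Dll4 from 0.71 to 0.45.

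Set against one another per library, the Atoh1 and Hes1 levels drew together in the knockout. The log2 CPM of Atoh1 minus that of Hes1 was −0.92, −0.85, −0.99 and −1.52 in wild-type replicates 1 to 4 and 0.19, −0.43, 0.16 and −0.19 in the knockout. Every wild-type library had clearly more Hes1 than Atoh1 counts, while in the knockout the sign varied around 0. The mean went from −1.07 ± 0.30 to −0.07 ± 0.30 (SD, n = 4 each), a shift of 1.00. For Dll1 minus Hes1 the mean went from −1.55 ± 0.31 to −0.05 ± 0.33, a shift of 1.50. The differences between genes within a library hardly depend on the scaling of libraries, but as CPM values are not divided by gene length, their sign says nothing of which transcript was more abundant.

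Atoh1 and Gfi1 kept their proportion. Their log2 CPM difference was 1.94 ± 0.22 in wild type and 1.92 ± 0.32 in the knockout. Notch1 and Notch2 did not: Notch1 minus Notch2 lay between 0.11 and 0.30 in wild type and between 0.49 and 0.80 in the knockout, so the receptors diverged by 0.44 even though each alone overlapped between genotypes. These ratios are given without a test, since the genes were chosen with earlier results known.

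**Figure D4:**
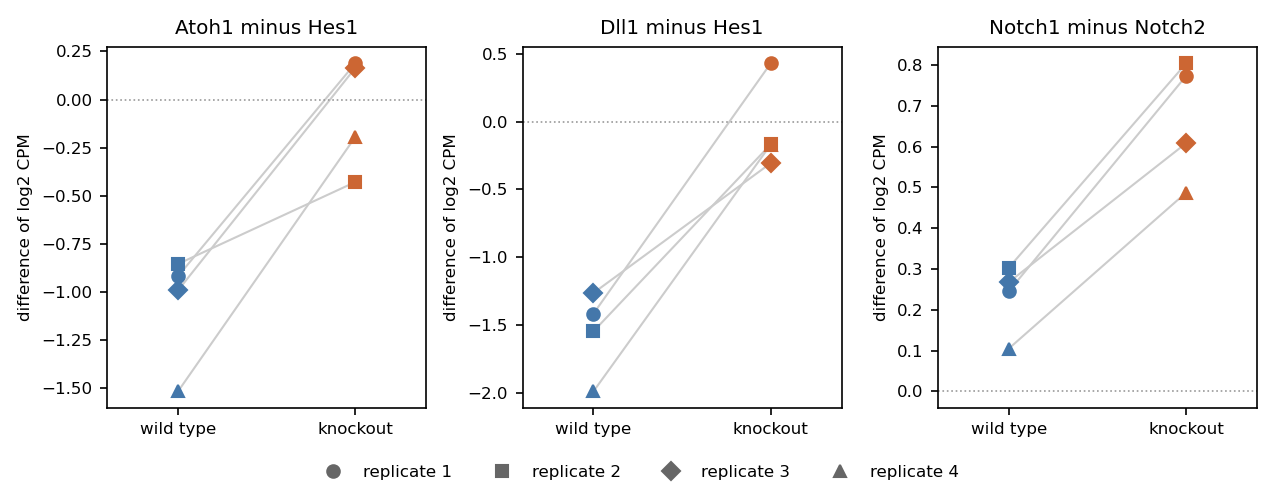
Difference of log2 CPM between 2 genes in the same library (vertical axis), by genotype. Each point is a library, its shape marks the replicate number, and grey lines join same-numbered libraries. A dotted line marks 0. Atoh1 minus Hes1 and Dll1 minus Hes1 lie below 0 in every wild-type library and around 0 in the knockout. Notch1 minus Notch2 lies above 0 in every library, and every knockout library is above every wild-type library.

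The second set of deposited values, taken to be FPKM, is divided by gene length and allows levels of different genes to be compared, though it is scaled by library totals. In wild type Hes1 was highest at 46.0 ± 5.61 FPKM, then Numb at 16.2 ± 0.73, Atoh1 at 14.6 ± 1.59 and Rbpj at 10.5 ± 1.38 FPKM. Dll1 (6.03 ± 1.14), Notch1 (5.67 ± 0.80), Dll4 (5.44 ± 0.62), Notch2 (4.38 ± 0.83) and Jag1 (4.18 ± 1.35) overlapped with their neighbours in this order, and Gfi1 was lowest at 2.95 ± 0.27 FPKM. Numb and Atoh1 overlapped as well. In the knockout Hes1 (28.8 ± 5.13) and Numb (27.8 ± 3.25 FPKM) overlapped at the top, followed by Atoh1 (18.4 ± 3.70) and Dll1 (10.5 ± 0.73), which had moved above Rbpj (6.90 ± 2.25), though the latter 2 overlap. On this scale Atoh1 was 15.4, 14.7, 16.0 and 12.4 FPKM in wild type and 16.2, 14.9, 23.3 and 19.1 FPKM in the knockout, so its groups overlap. Those of Gfi1 (2.68 to 3.32 against 2.42 to 6.62 FPKM) and Dll4 (4.88 to 6.06 against 6.05 to 10.5 FPKM) overlap as well, so 3 of the 5 genes called higher do not separate on this scale. Hes1, at 21.2 to 32.7 against 40.0 to 53.0 FPKM, was further apart than in CPM.

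The promoter windows of RefSeq (GRCm38.p6, 250 bases before to 50 after each transcript start) were searched on both strands for the RBPJ motif TGGGAA, the N-box CACNAG bound by HES factors and the E-box CAGCTG bound by bHLH factors such as ATOH1. Windows were given for 9 of the 10 genes, 14 windows in all, and Hes1 had none. TGGGAA was present in 2 of the 14 windows, both of Rbpj, against 25.6 percent of all 32851 windows. CACNAG was present in 6 of 14, against 42.5 percent, and CAGCTG in 2 of 14, against 16.3 percent. The N-box was found in windows of Dll1, Atoh1, Dll4 and Numb, which were called higher, and of Notch1 and Notch2, which were not called. Gfi1, called higher, had none, nor had Jag1 and Rbpj, which were not called. The windows of Dll1 and Atoh1 are shown as examples of genes called higher, and binding by HES1 was not tested. Capitals mark the motifs: in Dll1 (chr17:15376883-15377182, minus strand) an E-box 132 bases before the start and an N-box 13 bases after it, and in Atoh1 (chr6:64728875-64729174, plus strand) an N-box on the opposite strand 23 bases after it. A second Dll1 window held none of the 3 motifs.
Dll1 promoter: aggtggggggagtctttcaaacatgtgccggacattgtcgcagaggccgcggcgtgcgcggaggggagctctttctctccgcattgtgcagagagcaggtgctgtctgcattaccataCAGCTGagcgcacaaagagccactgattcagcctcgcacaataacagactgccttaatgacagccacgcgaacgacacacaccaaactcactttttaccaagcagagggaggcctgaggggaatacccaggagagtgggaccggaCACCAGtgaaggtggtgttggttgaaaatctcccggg
Atoh1 promoter: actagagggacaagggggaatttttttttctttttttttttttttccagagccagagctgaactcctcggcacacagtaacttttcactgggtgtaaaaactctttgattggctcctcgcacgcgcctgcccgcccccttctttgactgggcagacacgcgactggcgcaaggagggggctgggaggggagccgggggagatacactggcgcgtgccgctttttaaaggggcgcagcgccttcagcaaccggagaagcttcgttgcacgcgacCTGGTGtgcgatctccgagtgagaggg

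The genes whose profiles over the 8 libraries were most like those of 4 members were found by the root mean square difference of centred log2 CPM among 10689 genes with a mean of at least 50 counts. For Dll1 they were Tmcc1 (0.10), B4galnt2 (0.10) and Zbtb7b (0.10), and for Atoh1 Sema4b (0.08), Hpcal1 (0.08) and Parp10 (0.09). For Hes1 they were Eef2k (0.06), Eif4b (0.06) and Hmgn5 (0.07), and for Dll4 Tom1 (0.12), Arrdc2 (0.13) and Smad4 (0.15). Within the set, Dll1 and Numb were closest (0.16), followed by Atoh1 and Gfi1 (0.24). Since all profiles come from the same 8 libraries of 2 genotypes, a gene with a like genotype difference is close by that alone.

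The rest of the pathway was described through 10 lists of ligands, receptors, processing enzymes, nuclear factors, targets and secretory factors, the 10 genes left out. Of 94 listed genes 83 were tested, 26 were higher (31.3 percent, against 24.2 percent of all genes) and 14 lower (16.9 percent, against 23.1 percent), with a median log2 fold change of 0.14. Scaled by total counts the split was 11 higher and 19 lower. In replicates 1 to 3 alone 11 were higher, and without single libraries 16 to 21. It fell to 16 without knockout replicate 1 and to 17 without wild-type replicate 1 or knockout replicate 4. Besides the losses given below, Ncstn, Adam17, Hdac1, Dtx3l, Maml1, Maml3, Cir1, Ncor1, Neurl1a and Numbl lost their calls in replicates 1 to 3. Neurod1, Bhlha15, Creb3l4 and Xbp1 lost theirs there too. With total counts the calls of Sel1l, Furin, Dtx3l, Maml1, Maml3, Cir1, Ncor1 and Numbl were lost. The edgeR adjusted p-values of the called genes named below ran from 0.00116 to 0.0451.

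Of the other ligands and receptors none was called in the main test. Jag2 stood at 22.1 ± 7.84 and 20.3 ± 7.55 CPM in wild type and knockout, Notch3 at 10.9 ± 3.34 and 8.41 ± 4.18 CPM, and Notch4, mainly a receptor of blood vessels, at 14.7 ± 4.15 and 8.56 ± 3.75 CPM (edgeR adjusted p = 0.0874). At an unadjusted p below 0.05, 1 of these receptors (Notch4) and no ligand was lower. With the replicate number as a block Notch4 was called lower (log2 fold change −0.83, adjusted p = 0.0467), as it was without knockout replicate 4 (−1.11, adjusted p = 0.0219). Without the 3 fibroblast-rich libraries both Notch4 (−1.54, adjusted p = 0.00488) and Notch3 (−1.16, adjusted p = 0.0334) were. DESeq2 called no receptor and 1 ligand, Dll3, which had at most 15 counts in a library and was not tested by edgeR.

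The list of enzymes for ligand endocytosis, the step that makes a ligand active, held 4 of 5 called higher (80.0 percent, against 24.2 percent of all genes). Whether each listed enzyme, Neurl3 among them, acts on Notch ligands in crypts was not tested. With total counts 2 were higher (Neurl1b and Neurl3) and 1 lower (Mib1). The ubiquitin ligase Neurl3 rose 2.21-fold from 112 ± 30.2 to 247 ± 67.2 CPM, Neurl1b 1.87-fold from 6.82 ± 1.04 to 12.7 ± 2.02 CPM, and Mib2 1.69-fold from 13.5 ± 2.86 to 22.8 ± 3.51 CPM. Mib2 lost its call with total counts (adjusted p = 0.122) and in replicates 1 to 3 (0.0539). Neurl1a also rose, from 1.93 ± 0.37 to 3.90 ± 1.24 CPM, but lost its call without wild-type replicate 1, wild-type replicate 4 or knockout replicate 4 (adjusted p = 0.0632 to 0.0641). The fifth, Mib1, the ligase most used by vertebrate Notch ligands, stood at 47.0 ± 7.86 and 34.3 ± 7.38 CPM and was not called (log2 fold change −0.46, edgeR adjusted p = 0.0601). With the replicate number as a block it was called lower (−0.47, adjusted p = 0.00491), and so it was by DESeq2 (0.0472), with upper-quartile factors (0.0417), with total counts (0.0453), without the 3 fibroblast-rich libraries (0.0272) and without knockout replicate 3 (0.0475) or 4 (0.0252).

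Among enzymes that process the receptor, changes went both ways. Poglut1, which glucosylates Notch in the endoplasmic reticulum, fell 1.60-fold from 28.7 ± 1.59 to 17.9 ± 3.08 CPM and was the single call among 5 glycosylation genes. The fringe enzyme Lfng stood at 18.4 ± 3.13 and 14.3 ± 6.30 CPM and was not called, except without knockout replicate 3 (log2 fold change −0.72, adjusted p = 0.00728) and without the 3 fibroblast-rich libraries (−0.74, 0.0243). Of 9 cleavage genes 3 were higher (33.3 percent) and 1 lower (11.1 percent), against 24.2 and 23.1 percent of all genes. The gamma-secretase subunit Ncstn rose 1.52-fold from 122 ± 15.8 to 184 ± 33.1 CPM, and the convertase Furin 1.39-fold from 89.2 ± 9.06 to 124 ± 19.9 CPM. Furin lost its call when wild-type replicate 2, wild-type replicate 3 or knockout replicate 1 was left out (adjusted p = 0.0536 to 0.0572). The protease Adam17 fell 1.42-fold from 50.1 ± 6.13 to 35.3 ± 6.66 CPM, lost without wild-type replicate 4 (adjusted p = 0.0621), whereas Adam10, the main Notch sheddase, stood at 145 ± 11.1 and 128 ± 13.9 CPM and was not called.

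In the nucleus, 3 of 8 partners of the activating complex were higher (37.5 percent) and 1 lower (12.5 percent). The shares of all genes were 24.2 and 23.1 percent. The acetyltransferase Kat2b rose 1.73-fold from 23.4 ± 0.66 to 40.5 ± 6.47 CPM while its relative Kat2a fell 1.90-fold from 109 ± 13.5 to 57.6 ± 12.7 CPM. The co-activators Maml1 and Maml3 rose 1.42-fold and 1.40-fold. Maml1 lost its call in 5 of 8 fits without a single library (adjusted p = 0.0525 to 0.0921, all but those without wild-type replicates 2, 3 and 4), and Maml3 in all 8 (0.0549 to 0.150).

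Of 13 corepressors 3 were higher (23.1 percent) and 4 lower (30.8 percent), shares near those of all genes (24.2 and 23.1 percent); with total counts 1 was higher and 5 were lower. Tle3, a Groucho-family corepressor, rose 2.59-fold from 61.8 ± 10.3 to 160 ± 37.2 CPM. Cir1 rose 1.44-fold and Ncor1 1.36-fold. Cir1 lost its call when any of wild-type replicates 3 and 4 and knockout replicates 1 and 4 was left out (adjusted p = 0.0574 to 0.0761), and Ncor1 when any of wild-type replicates 1 and 2 and knockout replicates 1, 3 and 4 was (0.0698 to 0.0915). The deacetylase Hdac2 fell 1.71-fold from 109 ± 7.78 to 63.9 ± 9.46 CPM, Ctbp2 fell 1.50-fold from 94.1 ± 6.61 to 62.9 ± 3.24 CPM, the demethylase Kdm1a fell 1.33-fold and Hdac1 1.28-fold.

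Genes that limit or turn over Notch included 5 of 14 called higher (35.7 percent) and 1 lower (7.1 percent), and 2 and 1 with total counts. The main test called 24.2 percent of all genes higher and 23.1 percent lower. The ubiquitin ligase Itch, which acts together with NUMB on the receptor, rose 1.88-fold from 66.8 ± 2.49 to 126 ± 26.7 CPM. Nedd4l rose 1.62-fold from 47.7 ± 2.59 to 77.2 ± 7.73 CPM, Sel1l 1.44-fold and Dtx3l 1.41-fold. Numbl, the relative of Numb, rose from 1.78 ± 0.50 to 4.66 ± 3.30 CPM with overlapping groups, and lost its call in every fit without a single library except those without knockout replicates 2 and 4 (adjusted p = 0.0607 to 0.0987). Without knockout replicate 3 its log2 fold change was 0.78, from 1.38. Nedd4 fell 1.49-fold from 423 ± 56.8 to 284 ± 51.7 CPM and lost its call without wild-type replicate 4 (adjusted p = 0.0578). Nrarp, a feedback inhibitor that Notch itself induces, stood at 31.7 ± 4.28 and 27.2 ± 4.27 CPM and was not called.

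Of 8 tested genes listed as targets besides Hes1, 3 were lower (37.5 percent, against 23.1 percent of all genes). Whether each listed gene, Hes2 and Hes6 among them, is a Notch target in crypts was not tested. In the other direction 1 was higher (12.5 percent, against 24.2 percent). The cyclin gene Ccnd1 fell 2.11-fold from 566 ± 40.3 to 268 ± 83.1 CPM, Myc 1.60-fold from 201 ± 31.1 to 125 ± 19.8 CPM, and Hes6 1.66-fold from 94.2 ± 18.3 to 56.7 ± 8.75 CPM. Ccnd1 and Myc are targets of other pathways as well, among them Wnt, and Hes6 is known to inhibit HES1 rather than to act like it. Hes2 rose 16.7-fold from 1.05 ± 0.57 to 17.4 ± 11.2 CPM. Nrarp, Sox9 and Olfm4 were not called. Sox9 was called lower with total counts (adjusted p = 0.0438). Olfm4 stood at 258 ± 169 and 358 ± 168 CPM, with wild-type replicate 3 at 512 CPM and the other 3 at 165 to 179 CPM. Without wild-type replicate 3 it was called higher (log2 fold change 1.04, from 0.47, adjusted p = 0.0431), as it was without the 3 fibroblast-rich libraries (1.29, adjusted p = 0.0132). Hes5, Hes7, Hey1 and Hey2 had too few counts to be tested.

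Of 19 tested secretory factors besides Atoh1 and Gfi1, 7 were higher (36.8 percent) and 3 lower (15.8 percent). Among all genes these shares were 24.2 and 23.1 percent. With total counts 3 were higher (Klf4, Hepacam2 and Pou2f3) and 4 lower (Rcor2 besides the 3 below). Klf4, a factor of goblet cells that differentiated enterocytes also express, rose 5.10-fold from 103 ± 36.3 to 526 ± 166 CPM. Hepacam2, found in secretory cells, rose 2.22-fold from 21.9 ± 6.30 to 48.6 ± 3.44 CPM, and Pou2f3, the tuft cell factor, 3.19-fold from 0.97 ± 0.67 to 3.03 ± 0.61 CPM. Pou2f3 lost its call in replicates 1 to 3 (adjusted p = 0.0722) and without the 3 fibroblast-rich libraries (0.0780). The other 4 were Neurod1, Bhlha15, Creb3l4 and Xbp1, with adjusted p-values of 0.0318 to 0.0451, and each lost its call without several single libraries (without knockout replicate 2 in all 4 cases, adjusted p = 0.0840 to 0.168). Sox4 fell 2.13-fold from 88.8 ± 11.5 to 41.7 ± 11.3 CPM, Foxa1 2.07-fold from 77.8 ± 7.77 to 37.7 ± 9.42 CPM and Foxa3 1.46-fold from 40.9 ± 5.64 to 28.1 ± 2.97 CPM. Spdef, which acts below ATOH1 in goblet and Paneth cells, stood at 37.9 ± 6.55 and 41.9 ± 4.79 CPM (adjusted p = 0.437), and Neurog3, which starts the enteroendocrine fate, at 4.53 ± 1.50 and 6.72 ± 1.90 CPM (adjusted p = 0.151). Neither of these 2 genes was called. The log2 fold change of Neurog3 (0.57, SE 0.30) was nonetheless close to that of Atoh1 (0.59, SE 0.12), while that of Spdef was 0.14 (SE 0.15).

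**Figure D5:**
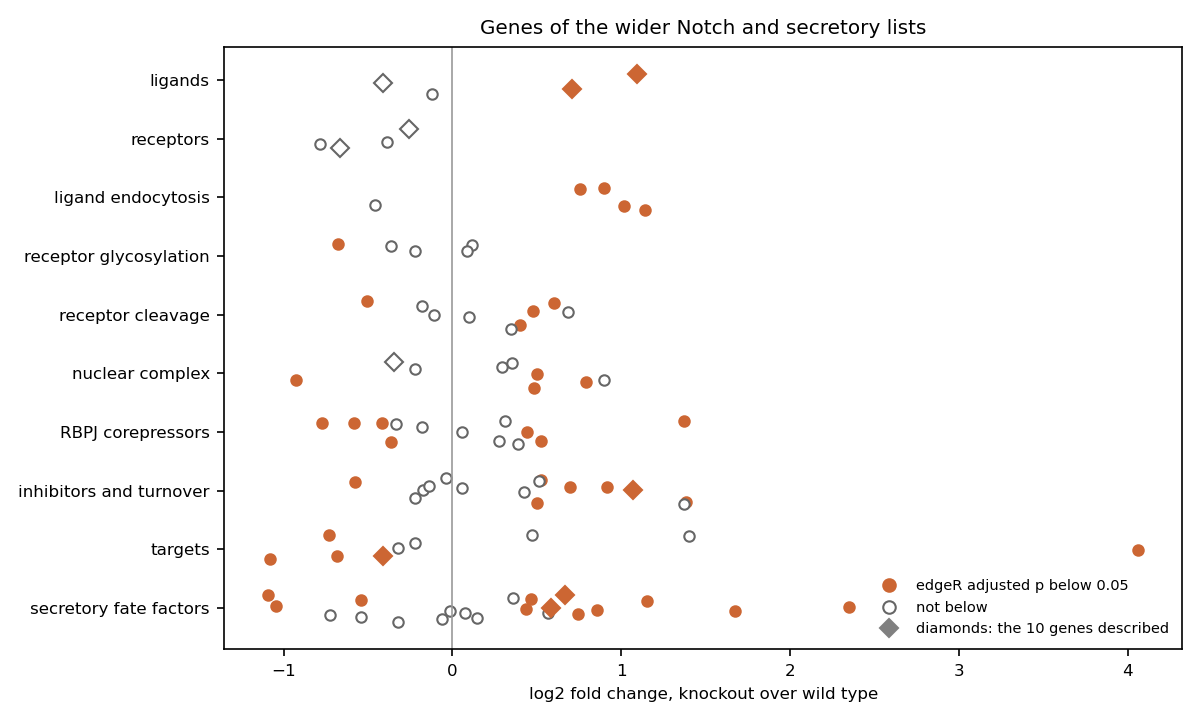
Log2 fold change, knockout over wild type (horizontal axis), of every tested gene of the 10 wider lists, 1 row per list, with circles for the listed genes and diamonds for the 10 genes of the set; filled marks passed the edgeR test at an adjusted p below 0.05. Ligand endocytosis genes are the row with most of its circles called and higher (4 of 5, or 2 of 5 with total counts), and the single point near 4 is Hes2.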

How the data were processed

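RNA of 8 crypt samples was sequenced, 4 wild type and 4 knockout, grouped by their labels. Per the file headers, the authors deposited read counts for each gene; 8.04 to 9.18 percent of a library's values were fractions, so these deposited values are estimated counts, made by a step that shares reads between features, and were rounded. The second deposited set has no unit in its header and was taken to be FPKM from its values. The submitters' processing notes name HISAT2 and DESeq2, with no role. The counter, genome build, annotation and strandedness are not given in the labels, so antisense reads cannot be told apart. Libraries held 9481201 to 16231099 counts, and the members' mean counts ran from 109 (Gfi1) to 967 (Numb).

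The quasi-likelihood test of edgeR 4.0.16 (R 4.3.3) was run on these counts with genotype alone (glmQLFit and glmQLFTest after filterByExpr and TMM), with Benjamini-Hochberg adjustment over all 12908 genes and a threshold of 0.05. The test was tried first on simulated data with few changed genes, as many higher as lower. That trial therefore says nothing of how the scaling of libraries affects the calls here. Log2 CPM used a prior count of 2, and SE is the log2 fold change divided by the square root of F. The 16 alternatives were DESeq2 1.42.0, 2 scalings, 2 filters, the replicate block, replicates 1 to 3 (replicate 4 of both groups lacks Y-linked transcripts: 3 and 1 counts against 1285 to 2061), leaving out the 3 libraries with the highest fibroblast CPM on unscaled totals, and each library in turn. Same-numbered libraries deviated together from their group means (correlations 0.311 to 0.524, others −0.478 to 0.447), though these ranges overlap. The numbers, which no label explains, were therefore used as pairs in the block fit and in the differences within same-numbered libraries. The main test does not use them.

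Members and lists were chosen with earlier results of these data known. Genes named besides the members are up to 3 called genes per list and direction with the smallest p and the nearest profiles. Neurl1a, Dtx3l, Numbl, Hdac1, Neurod1, Bhlha15, Creb3l4, Xbp1, Dcn, Fbln1, Egfl7, Tie1, Kdr, Plvap, Cdh5, Rcor2, Cd3e and the uncalled genes were named after their values were seen. Marker genes outside the 2 most abundant per list were likewise. Some genes that this rule takes are not reported here.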

Additional observations from a re-analysis of the deposited data

How the results depend on the processing

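None of the 10 genes changed sign under any of the 16 alternatives. Of the 10 genes, 1 was called lower in the main test. With DESeq2, with the replicate block and without the 3 fibroblast-rich libraries the count was 3, with upper-quartile factors and with total counts 2, and without single libraries 0 to 2. It was 0 without wild-type replicate 1, wild-type replicate 4 or knockout replicate 1 in edgeR, where 2, 1 and 2 of the genes had an unadjusted p below 0.05, and DESeq2 on all 8 libraries called 3. The count called higher, 5, became 2 with total counts and 3 in replicates 1 to 3, and was 4 or 5 without single libraries. In the wider lists 26 genes were called higher, against 11 with total counts, 11 in replicates 1 to 3 and 16 to 21 without single libraries. The replicate block added Notch2 and Rbpj to the lower genes and changed no other call of the 10. Over all genes 2089 to 3672 were called higher and 2380 to 4011 lower. Gfi1 had the fewest counts, 109 per library on average, and its knockout libraries spread widely; 4 libraries per group limit every comparison. Except where the construction removes samples, the cause of these shifts was not tested.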

Other observations

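Single markers of the secretory lineages did not all move alike. Among goblet transcripts Zg16 rose from 642 ± 341 to 2889 ± 880 CPM and Fcgbp from 1197 to 4312 CPM, while Galnt12 stood at 54.2 and 43.9 CPM and was not called. Among Paneth transcripts the defensin Defa21 rose from 1178 ± 208 to 2648 ± 1299 CPM, whereas Lyz1, the lysozyme that defines these cells, stood at 4859 ± 608 and 8564 ± 4252 CPM (edgeR adjusted p = 0.0612) and Mmp7 at 740 ± 137 and 559 ± 135 CPM. The knockout spread of the Paneth genes comes with replicate 2, whose summed Paneth level was 47975 CPM against 14977 to 26782 CPM in the other knockout libraries. Of the hormones, Gip rose from 41.9 ± 22.5 to 134.6 ± 53.5 CPM and Sst from 44.3 ± 16.3 to 113 ± 22.7 CPM, while Gcg stood at 40.1 ± 19.7 and 39.5 ± 14.04 CPM and Pyy at 14.5 ± 8.61 and 14.1 ± 5.54 CPM. The tuft cell channel gene Trpm5 rose from 3.30 ± 1.51 to 15.6 ± 2.58 CPM.

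Among markers of Lgr5-positive stem cells, the receptor Lgr5 fell from 28.6 to 14.6 CPM and the transcription factor Ascl2 from 49.98 to 18.7 CPM (edgeR adjusted p = 0.0143 and 0.00176). Olfm4, which is also a Notch target in crypts, stood at 258 ± 169 and 358 ± 168 CPM and was not called, and it ranged from 165 to 512 CPM in wild type and from 191 to 574 CPM in the knockout.

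In 20 groups of 4 values, 1 for each of the 10 genes and genotypes, no library stood apart by Dixon's criterion at the 95% level.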
